A study of Mus musculus with 2 samples.

Results

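The 8 genes described here are *Tox* and *Tox2*, the nuclear receptor genes *Nr4a1*, *Nr4a2* and *Nr4a3*, and the zinc finger genes *Egr1*, *Egr2* and *Egr3*. They were taken by symbol from the deposited expression values, which list 14732 symbols in at least 1 of the 2 libraries, and each of the 8 was listed in both. Both libraries came from CD8+ T cells of spleen and lymph nodes of OT-I transgenic C57BL/6 mice, 6 to 8 weeks old, whose T cells carry a receptor for SIINFEKL, a peptide of OVA. The cells were stimulated for 24 h with 2.5 ng/mL peptide and 10 U/mL IL-2, and then received a retrovirus with human CD2 alone (empty vector, control) or with human CD2 and Eomes (Eomes-overexpressing). Sorting for human CD2 followed 48 h later, and wells of 40000 cells were given peptide and IL-2 at the same concentrations for another 3 days, so every value below is from cells under repeated antigen stimulation. Each condition is 1 library. No replicate spread can be measured, and no difference below carries a p-value.

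TOX and TOX2 are DNA-binding proteins of the high mobility group box type. *Tox* is switched on by calcineurin and NFAT when T cell receptor signals persist, and it is needed for exhausted CD8+ T cells to form and survive. The NR4A proteins are orphan nuclear receptors whose genes are induced within hours of T cell receptor signalling, and they restrain effector genes in exhausted cells. EGR1 is an early response factor downstream of ERK and serum response factor, while EGR2 and EGR3 are also induced through NFAT and switch on brakes of T cell receptor signalling such as *Cblb*. Genes of these 3 families are read as a record of receptor signalling, as regulators of exhaustion, or as both. The comparison asks how their transcripts stood when Eomes was added.

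The starts of the NR4A genes and of *Egr2* are shown because early response genes are known to be induced through short elements there. RefSeq promoter windows, each from 250 bases before to 50 after an annotated start (build GRCm38.p6, which has the mm10 coordinates), were available for 5 of the 8 genes. None was available for *Tox*, *Egr1* and *Egr3*, so these genes were not searched for motifs. *Egr2* has 5 windows, of which 3 overlap and hold the same CArG box, and 1 of these is printed, while those of *Tox2* are not printed because the gene was hardly detected. The sequences are printed 5′ to 3′ on the strand of the gene. Capitals mark the core of the cAMP response element (CRE, searched as CGTCA on both strands, so that a full palindrome would count as 2 overlapping cores) and, in *Egr2*, also the CArG box that serum response factor binds. The windows are *Nr4a1* (chr15:101266596-101266895, plus strand), *Nr4a2* (chr2:57123954-57124253, minus strand), *Nr4a3* (chr4:48045055-48045354, plus strand) and *Egr2* (chr10:67537619-67537918, plus strand).
Nr4a1: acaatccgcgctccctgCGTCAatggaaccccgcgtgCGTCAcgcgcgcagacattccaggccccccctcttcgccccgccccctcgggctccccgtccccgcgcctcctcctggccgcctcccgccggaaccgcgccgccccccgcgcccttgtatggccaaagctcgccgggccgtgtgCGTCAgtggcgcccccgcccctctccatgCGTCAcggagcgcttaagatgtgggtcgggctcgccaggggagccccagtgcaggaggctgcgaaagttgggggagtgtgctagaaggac
Nr4a2: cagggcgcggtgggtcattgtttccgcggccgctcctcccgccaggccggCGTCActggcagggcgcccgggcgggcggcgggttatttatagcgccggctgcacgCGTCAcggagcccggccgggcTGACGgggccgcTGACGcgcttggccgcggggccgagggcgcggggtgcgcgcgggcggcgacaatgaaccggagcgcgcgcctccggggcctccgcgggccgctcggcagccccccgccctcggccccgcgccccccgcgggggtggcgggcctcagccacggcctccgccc
Nr4a3: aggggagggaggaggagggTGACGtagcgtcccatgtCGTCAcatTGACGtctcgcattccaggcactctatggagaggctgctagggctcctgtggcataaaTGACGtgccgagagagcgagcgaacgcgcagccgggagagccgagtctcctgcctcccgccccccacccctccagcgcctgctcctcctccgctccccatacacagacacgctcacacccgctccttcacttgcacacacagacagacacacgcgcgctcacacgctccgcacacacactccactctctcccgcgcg
Egr2: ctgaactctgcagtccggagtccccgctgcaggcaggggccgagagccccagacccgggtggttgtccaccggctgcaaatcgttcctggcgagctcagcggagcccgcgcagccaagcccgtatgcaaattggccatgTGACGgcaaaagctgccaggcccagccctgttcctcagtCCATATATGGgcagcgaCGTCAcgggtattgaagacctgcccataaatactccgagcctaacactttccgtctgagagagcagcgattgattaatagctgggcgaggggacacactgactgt

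Each of the 3 NR4A windows held 4 CRE cores. Of 32851 promoter windows of the same length, 20.8% held at least 1 CRE core and 0.231% held 4 or more. The *Egr2* window held 2 CRE cores and 1 CArG box, a motif found in 1.63% of all windows. The T-box core GGTGTG, searched on both strands, had 1 match in the *Nr4a3* window and was not found in the printed windows of *Nr4a1*, *Nr4a2* and *Egr2*, compared with 19% of all windows that held it. The NFAT core GGAAA occurred once each in the printed *Nr4a2* and *Egr2* windows (61.3% of all windows). The EGR core GTGGGCG was in none of the 4 printed windows (7.97% of all windows). Among the *Egr2* windows not printed, chr10:67537316-67537615 held 1 CArG box and 3 NFAT cores, and chr10:67535249-67535548 held 1 EGR core. Among the *Tox2* windows, chr2:163203033-163203332 held 1 T-box core, chr2:163203936-163204235 held 1 CRE core, and chr2:163225203-163225502 held 1 NFAT core. These are matches of letters and do not show binding.

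Values are FPKM, read numbers scaled by transcript length and library depth, as computed by the authors, so levels can be compared between genes. Low values clustered near whole multiples of what 1 read is worth, which placed the depth near 19150000 reads for control and 19100000 reads for Eomes-overexpressing cells. Read numbers below are approximations from FPKM, that depth and the longest annotated transcript, and 95% intervals are exact intervals on them (Clopper-Pearson for ratios, Poisson for levels). They cover counting error only, and because the transcript used by the authors may be shorter, the interval with 0.5 times the reads is also given where it matters. A gene was called expressed at an FPKM of at least 1 in at least 1 library, and ratios are log2 of Eomes-overexpressing over control. *Eomes* itself was at an FPKM of 2.47 in the control library and 129.6 in Eomes-overexpressing cells, where reads of the vector and of the endogenous gene cannot be told apart.

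Of the 7 expressed genes of the 3 families, 2 were more than 1.5-fold lower in Eomes-overexpressing OT-I cells (*Tox* and *Egr3*). In the other direction, 1 was more than 1.5-fold higher (*Nr4a3*). *Tox* reached an FPKM of 1 only in control, the library where it was higher, so the minimum itself favours counting it as lower. The same minimum was used for all expressed genes. Among all 9925 expressed genes, 7.65% lay past 1.5-fold, 2.46% higher and 5.19% lower. The median log2 ratio of the 7 genes was -0.23, against -0.0037 over all expressed genes. *Nr4a3* was just past the threshold at 1.52-fold higher, and *Egr2* just short of it, 1.42 times as high in control. The summed FPKM of the TOX genes was 3.38 in the control library and 0.84 in Eomes-overexpressing cells, nearly all of it *Tox*. The sum of the EGR genes was 32.6 and 26.9 (log2 ratio -0.28) and that of the NR4A genes 29.3 and 35.9 (log2 ratio 0.29), both inside 1.5-fold. *Nr4a3* alone was 6.67 FPKM higher in Eomes-overexpressing cells, while *Nr4a2* was 1.30 FPKM higher and *Nr4a1* differed by -1.40 FPKM.

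**Figure D1:**
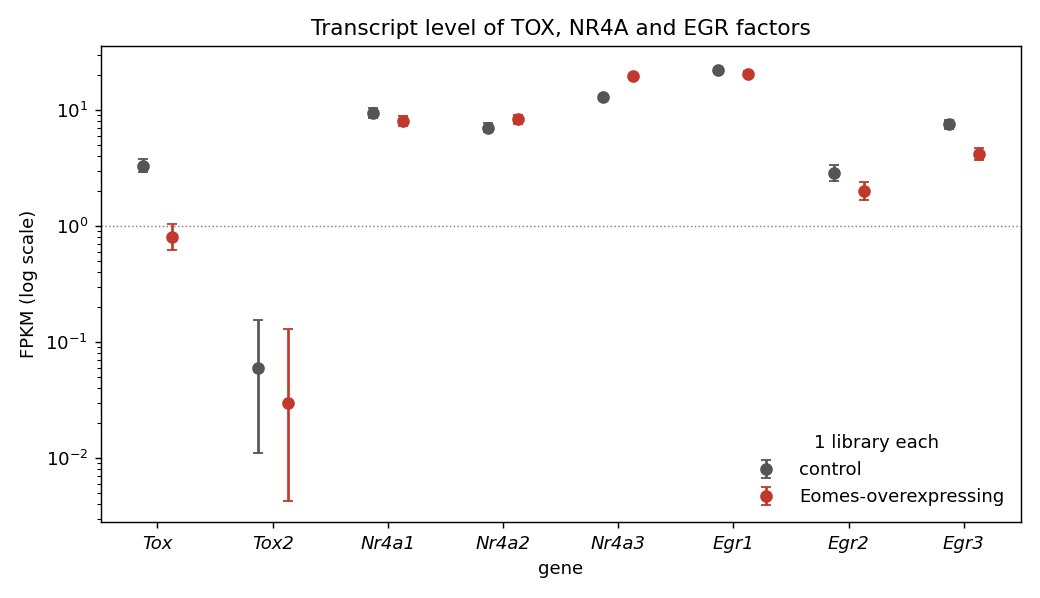
FPKM (log axis) of the 8 genes in the control library (grey) and the Eomes-overexpressing library (red), 1 library each. Bars are 95% Poisson intervals of the approximated reads and the dotted line is an FPKM of 1. *Tox* stands at 3.32 in control and under 1 in Eomes-overexpressing cells, and *Tox2* lies far under 1 in both.

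*Tox* had the log2 ratio farthest from 0 of the 8. It lies on the minus strand of chromosome 4 of mm10, from 6686353 to 6991557. Its FPKM was 3.32 in control (95% interval 2.92 to 3.76) and 0.81 in Eomes-overexpressing cells (0.617 to 1.04). The level in control was thus 4.10 times that in Eomes-overexpressing cells, and the 2 intervals do not overlap. The log2 ratio was -2.04, from about 252 and 61 reads (interval -2.47 to -1.63, and -2.64 to -1.44 with 0.5 times the reads). In the order of the 9925 expressed genes from the highest to the lowest ratio it was at position 9913. It was among these genes only through its value in control. *Tox* is a gene of low abundance here, and low genes scatter more. Among the 2414 expressed genes with a mean FPKM of 1 to 5, 11.5% were more than 1.5-fold lower and 95% had a log2 ratio between -1.21 and 0.78, a range that does not reach down to the ratio of *Tox*. *Tox* is overlapped on the opposite strand by an antisense gene, Gm11802, which was listed in neither library, and 5.39% of the 50-base stretches of its longest transcript also occur in transcripts of other genes.

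*Tox2*, the closest relative of *Tox* in this group and a gene also linked to exhausted cells, was hardly detected. It lies on chromosome 2 from 163203125 to 163324170. Its FPKM was 0.06 in the control library and 0.03 in Eomes-overexpressing cells, from about 3 and 2 reads. The interval of its log2 ratio was -4.16 to 2.54, so no difference was detectable at this depth. *Tox* accounted for 98.2% of the summed FPKM of *Tox* and *Tox2* in control and for 96.4% in Eomes-overexpressing cells.

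The NR4A genes went in different directions. *Nr4a3*, which encodes NOR1, lies on chromosome 4 from 48045153 to 48086447. Its FPKM was 12.8 in control (12.2 to 13.5) and 19.5 in Eomes-overexpressing cells (18.7 to 20.4), without overlap of the intervals. The log2 ratio was 0.60 from about 1406 and 2132 reads, at position 233 of the 9925 expressed genes. Its interval of 0.51 to 0.70 (0.47 to 0.74 with 0.5 times the reads) stays above 0 but spans the 0.58 that corresponds to 1.5-fold. Of the 3555 expressed genes with a mean FPKM of 5 to 20, 1.55% were more than 1.5-fold higher, and the upper end of their central 95% was 0.50.

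*Nr4a2*, which encodes NURR1, lies on the minus strand of chromosome 2 from 57106830 to 57124003. Its FPKM was 7.02 in the control library and 8.32 in Eomes-overexpressing cells, and the interval of the log2 ratio of 0.25 was 0.066 to 0.42. With 0.5 times the reads the interval was -0.012 to 0.50 and held 0. *Nr4a1*, which encodes NUR77 and is widely used as a reporter of T cell receptor signal strength, lies on chromosome 15 from 101254269 to 101274795. Its FPKM was 9.43 in the control library and 8.03 in Eomes-overexpressing cells. The log2 ratio was -0.23 (interval -0.43 to -0.033, and -0.52 to 0.048 with 0.5 times the reads). Both genes were therefore well inside 1.5-fold, on opposite sides of 0, with differences close to the counting error.

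The make-up of the NR4A family differed between the libraries. *Nr4a3* was 1.36 times as abundant as *Nr4a1* in control and 2.43 times as abundant in Eomes-overexpressing cells. The log2 ratio of *Nr4a3* thus exceeded that of *Nr4a1* by 0.84 (normal-approximation interval for counting error 0.62 to 1.05, and 0.53 to 1.14 with 0.5 times the reads). *Nr4a3* made up 43.8% of the summed NR4A FPKM in control and 54.4% in Eomes-overexpressing cells, while the share of *Nr4a1* was 32.2% and 22.4%. The share of *Nr4a2* was 24.0% and 23.2%. In the windows printed above each of the 3 genes had 4 CRE cores, and *Nr4a3* also had 1 T-box core. That core is found in 19% of all windows, and whether these letter matches bear on the ratios was not tested. Shared sequence between transcripts was small, at 0.159% of the 50-base stretches of *Nr4a3* and 0 for *Nr4a1* and *Nr4a2*.

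**Figure D2:**
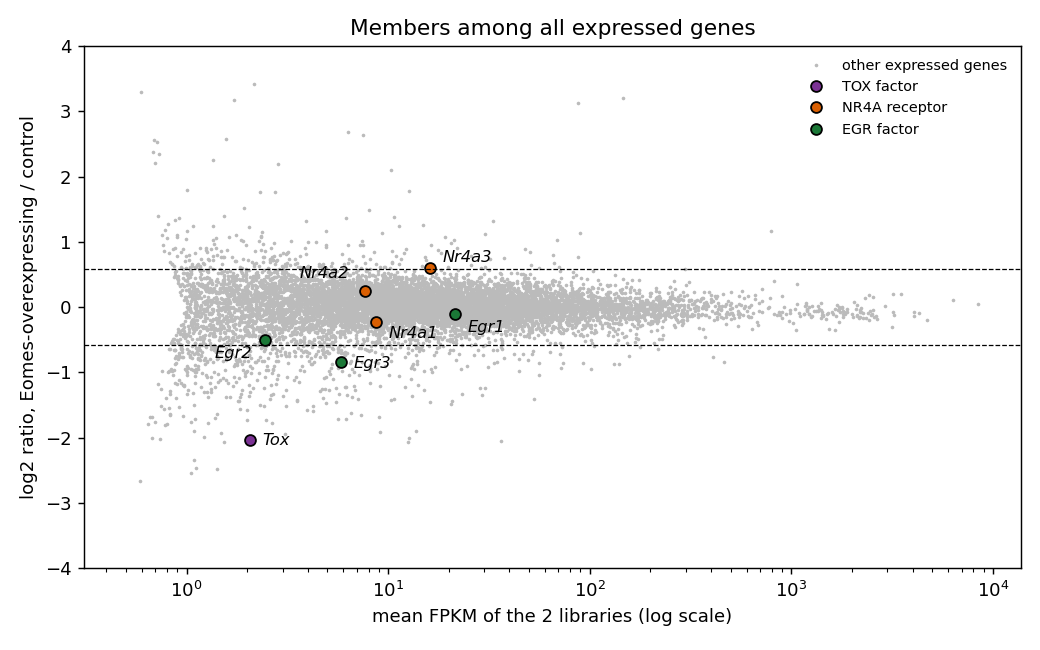
Log2 ratio of Eomes-overexpressing over control against the mean FPKM of the 2 libraries (log axis) for the 9925 expressed genes (grey) with the 7 expressed TOX, NR4A and EGR genes marked; dashed lines are 1.5-fold, and 10 genes lie outside the plotted range of -4 to 4. *Tox* lies at -2.04 and *Egr3* at -0.84, while *Nr4a3* is at 0.60, next to the upper dashed line.

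Among the EGR genes the log2 ratio was below 0 for all 3, and *Egr3* was past 1.5-fold. Of the 9925 expressed genes, 5010 had a log2 ratio below 0. *Egr3* lies on chromosome 14 from 70077203 to 70082614. Its FPKM was 7.52 in control (6.91 to 8.16) and 4.19 in Eomes-overexpressing cells (3.74 to 4.67), so the level in control was 1.79 times as high and the intervals do not overlap. The log2 ratio was -0.84 from about 567 and 315 reads (interval -1.05 to -0.64), at position 9666 of the 9925 expressed genes. With 0.5 times the reads the interval was -1.13 to -0.56, which spans 1.5-fold. Of the expressed genes with a mean FPKM of 5 to 20, 3.54% were more than 1.5-fold lower, and the lower end of their central 95% was -0.69.

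*Egr2*, the paralog that shares the role of *Egr3* in restraining activated T cells, lies on chromosome 10 from 67535475 to 67542188. Its FPKM was 2.86 in control (2.43 to 3.33) and 2.02 in Eomes-overexpressing cells (1.66 to 2.42), and the low end in control lay just above the high end in Eomes-overexpressing cells. The log2 ratio was -0.50 from about 162 and 114 reads (interval -0.86 to -0.15, and -1.02 to 0.0035 with 0.5 times the reads). *Egr1*, the most abundant of the 8 genes in both libraries, had an FPKM of 22.2 in the control library and 20.6 in Eomes-overexpressing cells. Its log2 ratio was -0.11 (interval -0.20 to -0.011, and -0.24 to 0.029 with 0.5 times the reads, which holds 0), and it became -0.0048 after subtraction of the median ratio within 20 bins of GC content.

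Within the EGR family, *Egr1* was 2.95 times as abundant as *Egr3* in control and 4.93 times in Eomes-overexpressing cells, a difference of 0.74 between their log2 ratios (0.52 to 0.96, and 0.43 to 1.05 with 0.5 times the reads). The log2 ratios of *Egr3* and *Egr2* differed by -0.34 (interval -0.74 to 0.057), which holds 0. *Egr1* made up 68.1% of the summed EGR FPKM in control and 76.9% in Eomes-overexpressing cells, *Egr3* 23.1% and 15.6%, and *Egr2* 8.78% and 7.52%. The 50-base stretches of the longest transcripts of the 3 EGR genes did not occur in other genes.

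**Figure D3:**
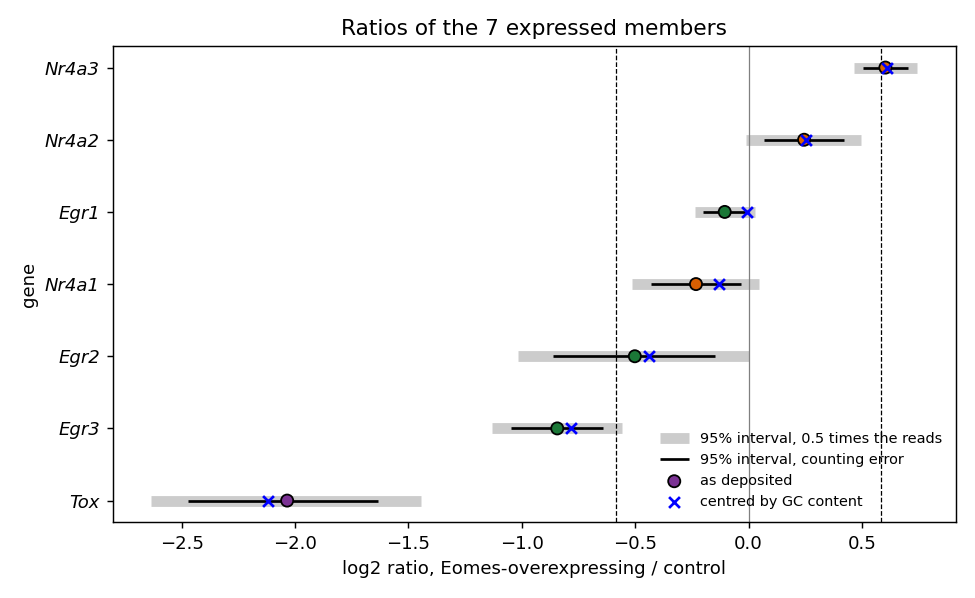
Log2 ratios of the 7 expressed genes (circles, purple for TOX, orange for NR4A and green for EGR) with 95% intervals for counting error (black lines), the intervals with 0.5 times the reads (grey bars) and the ratio after centring by GC content (blue crosses); dashed lines are 1.5-fold. The intervals of *Tox* lie wholly below the lower dashed line, that of *Nr4a3* spans the upper one, and the cross of *Egr1* lies at -0.0048.

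Ordered by FPKM, the control library read *Egr1*, *Nr4a3*, *Nr4a1*, *Egr3*, *Nr4a2*, *Tox*, *Egr2* and *Tox2*. The counting intervals of *Egr3* and *Nr4a2* overlapped, as did those of *Tox* and *Egr2*, and the other neighbours were apart. In Eomes-overexpressing cells the order was *Egr1*, *Nr4a3*, *Nr4a2*, *Nr4a1*, *Egr3*, *Egr2*, *Tox* and *Tox2*. There the intervals of *Egr1* and *Nr4a3* overlapped, and so did those of *Nr4a2* and *Nr4a1*. *Egr1* and *Nr4a3*, which were 9.36 FPKM apart in control, had overlapping intervals in Eomes-overexpressing cells, and *Tox* was below *Egr2*.

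Among the other family members and partners, *Tox4*, a ubiquitous TOX gene, had an FPKM of 38.9 in the control library and 33.9 in Eomes-overexpressing cells (log2 ratio -0.20). *Nab1* and *Nab2*, which encode corepressors that bind EGR proteins, had log2 ratios of -0.086 and 0.16. *Tox3* and *Egr4* were not listed in either library. None of the 3 expressed genes of this list was past 1.5-fold (7.65% of all expressed genes), and their median was -0.086.

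All 9 genes of a list of calcineurin and NFAT genes were expressed. Of these, 1 was more than 1.5-fold higher (2.46% of all expressed genes) and 0 were lower (5.19% of all expressed genes), and their median log2 ratio was 0.073. The gene past the threshold was *Ppp3ca*, a catalytic subunit of calcineurin, with an FPKM of 5.80 in the control library and 8.83 in Eomes-overexpressing cells. Its log2 ratio of 0.61 (interval 0.45 to 0.77) was 0.52 after centring by GC content and then inside 1.5-fold. *Ppp3cc*, the calcineurin subunit gene with the highest mean FPKM, had a log2 ratio of -0.050, and *Nfatc1* had one of -0.25.

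A list of genes of the ERK and serum response factor pathway and of early response genes held 27 expressed genes. Of these 0 were more than 1.5-fold higher and 1 was lower, against 2.46% and 5.19% of all expressed genes, and the median log2 ratio was 0.0024. The lower gene was *Atf3*, a stress-induced transcription factor gene of the ATF and CREB family, with an FPKM of 33.5 in the control library and 13.3 in Eomes-overexpressing cells (log2 ratio -1.33, interval -1.48 to -1.18). The other 26 lay between *Spry1* at -0.33 and *Fosb* at 0.46. *Jund*, the gene of the list with the highest mean FPKM, had a log2 ratio of -0.16, and *Srf* itself one of 0.029.

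A list of 15 genes linked to T cell anergy and to EGR2 and EGR3 held 14 expressed genes, of which 1 was more than 1.5-fold higher and 3 were lower, against 2.46% and 5.19% of all expressed genes. Their median log2 ratio was -0.18. *Nrn1*, which encodes the surface protein neuritin, had an FPKM of 8.70 in the control library and 2.64 in Eomes-overexpressing cells (log2 ratio -1.72, interval -2.07 to -1.37). *Ndrg1*, described as an anergy factor and also induced by hypoxia, had an FPKM of 23.5 and 8.56 (log2 ratio -1.46, interval -1.59 to -1.33). *Nrp1*, which encodes neuropilin-1, had an FPKM of 5.34 and 2.93 (log2 ratio -0.87, interval -1.12 to -0.62). The higher gene was *Fasl*, the death ligand of cytotoxic cells, with an FPKM of 13.8 and 27.1 (log2 ratio 0.97, interval 0.82 to 1.13). The ubiquitin ligase gene *Cblb* was at 0.19, and *Dgka* and *Dgkz*, which encode diacylglycerol kinases, were at -0.45 and -0.030. *Tnfrsf9*, the most abundant gene of this list, was at -0.12.

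The HBO1 histone acetyltransferase complex, a known partner of TOX, was measured with 9 expressed genes, and 0 of these were past 1.5-fold in either direction (7.65% of all expressed genes). The median log2 ratio was 0.12, with *Kat7*, its catalytic subunit, at 0.055 and *Jade2*, the gene with the highest mean FPKM, at -0.31.

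**Figure D4:**
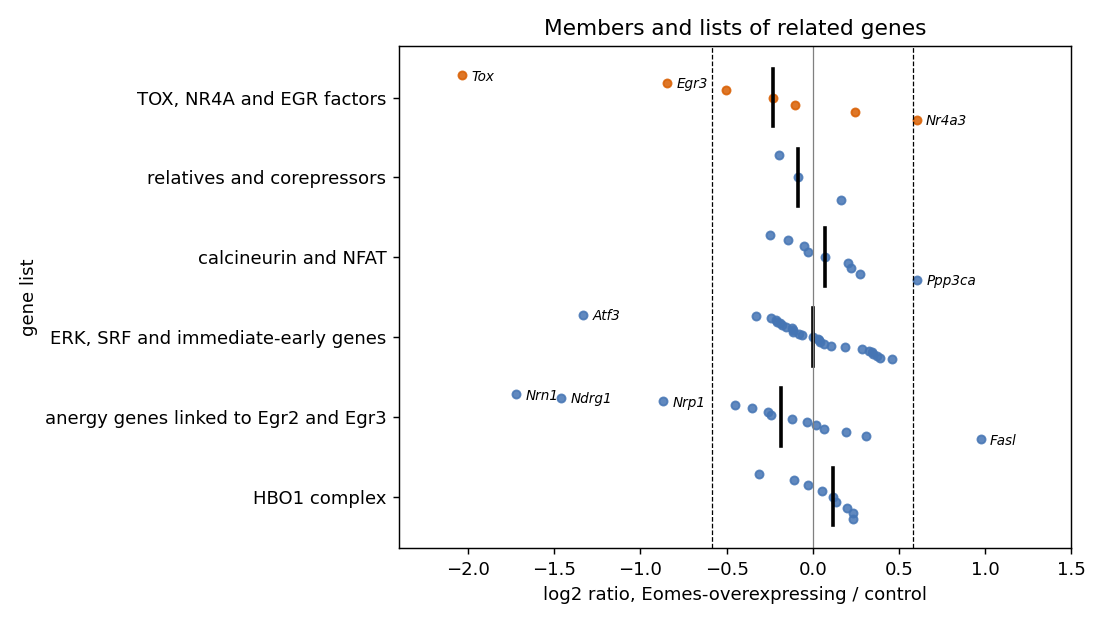
Log2 ratios (horizontal axis) of the expressed TOX, NR4A and EGR genes (orange) and of the expressed genes of 5 lists of related genes (blue), 1 row per list; black bars are medians, dashed lines 1.5-fold, and genes past them are named. The medians of the 5 lists of related genes lie between -0.18 and 0.12, and *Nrn1* at -1.72 is the lowest gene of these lists.

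The cells carried the markers of CD8 T cells. All 7 markers were expressed, with a summed FPKM of 2451 in the control library and 2081 in Eomes-overexpressing cells, and *Cd8a* was the 1 past 1.5-fold (FPKM 181.8 and 99.1). The log2 ratio was below 0 for all 7, with a median of -0.25, from *Cd8a* at -0.88 to *Thy1*, the most abundant of them, at -0.11. It was below 0 for 5010 of the 9925 expressed genes. The summed FPKM of 4 B cell markers was 2.87 and 1.62, of which *Cd79b* gave 2.79 and 1.56, and that of 7 myeloid and dendritic cell markers was 1.62 and 1.49, of which *Cd14* gave 1.39 and 1.12. *Ms4a1*, *Lyz2*, *Csf1r*, *Adgre1* and the NK cell gene *Ncr1* were not listed in either library. *Klrb1c*, which encodes NK1.1, was at 0.31 in the control library and 5.74 in Eomes-overexpressing cells out of a summed FPKM of 0.43 and 5.89 for the 4 CD4 T and NK cell markers. The part of these differences in the values of the TOX, NR4A and EGR genes was not tested. In bulk RNA, fewer cells that express *Tox* and less *Tox* RNA per cell cannot be told apart.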

How the data were processed

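Total RNA of 2 cultures, control and Eomes-overexpressing OT-I cells, was sequenced by the authors as 1 library per condition. Reads were filtered with SOAPnuke and mapped to mm10 with HISAT and Bowtie2. The authors computed the deposited FPKM values with RSEM, and their methods call them RPKM. Values have 2 decimals and are listed from 0.01 upward. Symbols turned into dates were left out (20 in control, 19 in Eomes-overexpressing cells).

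Log2 ratios, with values under 0.01 or not listed set to 0.01, were computed in Python (version 3.11.15) with pandas 2.3.3, numpy 2.4.6, scipy 1.17.1 and, for the plots, matplotlib 3.10.9. The fold threshold of 1.5 is that of the study. The study also required an FDR under 0.01, and no FDR was used here. Positions, lengths and GC content came from GENCODE vM21 on mm10, and 99.1% of the expressed genes had a length. Depth was the value at which low FPKM of genes with transcripts under 1500 bases were closest to whole reads. At it, 63.5% (control) and 60.6% (Eomes-overexpressing) of the values tested lay within 0.15 of a whole read, and 30% would do so if spread evenly. The steps were tested on simulated data. Named genes were all members, the genes of each list past 1.5-fold, the most abundant gene of each list, and *Eomes*; *Nab1*, *Nab2*, *Nfatc1*, *Srf*, *Spry1*, *Fosb*, *Cblb*, *Dgka*, *Dgkz* and *Kat7*, and the unlisted *Tox3*, *Egr4*, *Ms4a1*, *Lyz2*, *Csf1r*, *Adgre1*, *Ncr1* and Gm11802, were named after their values were seen. No gene was sought for a pattern like that of a member, since 2 libraries give 1 ratio per gene. The members and lists were chosen with earlier results of these data known.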

Additional observations from a re-analysis of the deposited data

How the results depend on the processing

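With 1 FPKM added to both values, 0 of the TOX, NR4A and EGR genes were more than 1.5-fold higher, since *Nr4a3* was at 0.57, and the log2 ratio of *Tox* was -1.26. With a 2-fold threshold 0 were higher and 1 was lower. With a minimum FPKM of 5 in at least 1 library 1 was lower (*Egr3*), as *Tox* was not counted. *Egr3* itself reached 5 only in control (7.52, against 4.19 in Eomes-overexpressing cells), so this minimum favours counting it as lower. For the 5 lists of related genes together, the number of higher genes went from 2 to 1 with 1 FPKM added, to 1 after centring in 20 bins of GC content, and to 0 at 2-fold. The share of all expressed genes was not computed at these changed settings, so the counts have no background beside them. Scaling to TPM, to a trimmed mean of log ratios or to the median moved all ratios by at most 0.032. No paired analysis was possible because each condition has 1 library, and for the same reason no replicate could be left out. Genes with few reads, such as *Tox2*, are limited by depth.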
